A study of Mus musculus with 2 samples.

Results

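In melan-a cells, an immortalised mouse melanocyte line, 612 of 3573 EP300 loci found in both replicates had their centre in a wide gap of H3K4me1, that is, between flanking regions at least 850 bp apart. EP300 and H3K4me1 were mapped by chromatin immunoprecipitation and sequencing in cells labelled C57BL/6 Ink4a -/-, with no treatment. The EP300 sample came as a separate list of peaks for each of its 2 replicates, and the H3K4me1 sample as a single list of regions covering its 2 replicates. The antibodies were anti-p300 and anti-H3K4me1, and nothing in the labels says whether replicates came from separate cultures. The samples used here hold a single cell line and condition, so the comparison was made within these lists, between wide gaps and the 738 narrow gaps of 500 bp or less.

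The loci were selected by geometry. A shared locus was the merged interval of overlapping EP300 peaks of both lists, with an overlap of at least 1 bp, and its centre lay midway along the stretch covered by both peaks of the pair with most summed tags. The centre lay outside every H3K4me1 region and had a region within 1000 bp on each side at 2224 loci. The 612 wide gaps made up 27.5% of these (Clopper-Pearson 95% interval 25.7% to 29.4%) and 17.1% of all shared loci, and the narrow gaps made up 33.2% of the 2224. Gap width was the value that chose the loci, and it is given as a description. Coordinates are those of mm9. Because the gene annotation used here belongs to another build, no gene is named, and no genomic sequence is shown.

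EP300, also called p300, is an acetyltransferase that transcription factors recruit to enhancers and promoters, where it acetylates histones and other proteins. H3K4me1, monomethylated lysine 4 of histone H3, is carried by nucleosomes on either side of enhancers. Where factors bind, nucleosomes are displaced or lost, so that the mark commonly shows a dip around the bound site. In melanocytes, enhancers of pigment genes are bound by the transcription factors MITF and SOX10, and EP300 is one of the coactivators used to locate such elements.

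The replicates had 31439027 and 32355042 ChIP tags after filtering, against 20010848 and 24669749 control tags, and gave 8451 and 10351 peaks, with 43 tags as the median in each list. The members held 55604 tags in replicate 1 and 63389 in replicate 2, or 0.177% and 0.196% of the filtered tags. The H3K4me1 list held 59923 regions. Its depth is unknown, so a gap is a stretch in which no region was called, which is not the same as absence of the mark. With 1 sample per antibody there is no test of wide against narrow gaps. Medians are given with binomial order-statistic 95% intervals, which cover counting error over loci only, and each EP300 value is given separately for the 2 lists.

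The wide gaps were the upper tail of one continuous distribution. Their median width was 1050 bp, with quartiles at 900 bp and 1200 bp, and the widest was 1850 bp. Of the 612 gaps, 299 were 850 bp to 1000 bp wide, 237 were 1050 bp to 1300 bp wide and 76 were 1350 bp or wider. Since flanks were sought within 1000 bp of the centre, no gap above 2000 bp could enter. At the limit itself, the 89 loci with gaps of 850 bp had median tag counts of 76 and 80 in replicates 1 and 2, and the 125 loci just outside, with gaps of 800 bp, had 81 and 97. The tag counts thus were no higher just inside the limit than just outside it. No wide gap held more than 1 shared locus, and several peaks of one list were merged at 9 members (1.47%) and 11 loci of narrow gaps (1.49%), beside 1.35% of all gap loci.

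**Figure D1:**
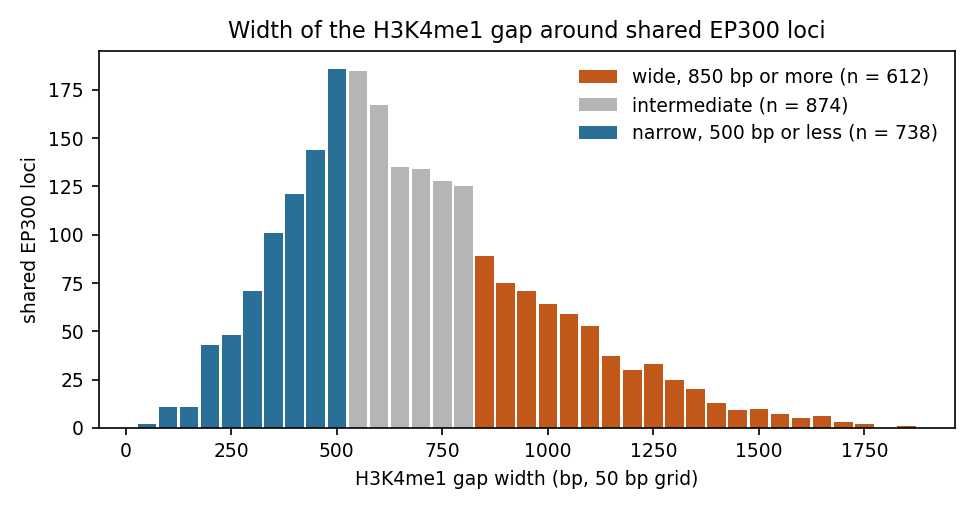
Number of shared EP300 loci by width of the H3K4me1 gap around their centre, in bp on the 50 bp grid of the region edges. The 612 wide gaps are the right tail of a single distribution, and the 738 narrow gaps are its left side.

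EP300 peaks in wide gaps held more tags and were longer than those in narrow gaps, in both replicates. In replicate 1 the median was 77.5 tags in wide gaps (interval 74 to 81) and 60 in narrow gaps (57 to 62), a ratio of 1.29. In replicate 2 it was 86 tags (82 to 93) against 66 (65 to 69), a ratio of 1.30. The distributions overlapped broadly, since the quartiles in replicate 1 were 56 and 111 tags in wide gaps and 46 and 80 in narrow gaps. Members ranged from 24 to 380 tags in replicate 1 and from 27 to 438 in replicate 2. Peak length showed the same order, with medians of 1154.5 bp in wide gaps and 997 bp in narrow gaps in replicate 1, and 1244.5 bp against 1084.5 bp in replicate 2. Tags per kb of peak differed less than tags, at 64.4 against 58.5 in replicate 1 and 67.4 against 60.5 in replicate 2, which are ratios of 1.10 and 1.11. Gaps of 550 bp to 800 bp had medians of 64.3 tags per kb in replicate 1 and 65.4 in replicate 2.

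The difference in tags was smaller within classes of peak length. When peaks were compared within quartiles of length, the ratio of median tags in wide over narrow gaps averaged 1.05 in replicate 1 and 1.09 in replicate 2. In the shortest quartile of replicate 1 the medians were 44 tags in wide gaps and 43 in narrow gaps. The difference was largest in the longest quartile of both lists, with medians of 121 tags in wide gaps and 108 in narrow gaps in replicate 1, and 136.5 against 112 in replicate 2. This quartile ran from 1277 bp to 3313 bp in replicate 1 and from 1417 bp to 4335 bp in replicate 2, so length was not equal within it.

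Fold enrichment, the height of the summit over the local background, was slightly higher in wide gaps in replicate 1 and alike in replicate 2. Its median in replicate 1 was 8.09 in wide gaps (interval 7.71 to 8.39) and 7.49 in narrow gaps (7.10 to 7.68), a ratio of 1.08. The intervals of replicate 1 did not overlap, but their ends of 7.68 and 7.71 were close. Under some alternative settings, though not all, the interval of this ratio reached below 1. With centres between the MACS summits the ratio was 1.05 (0.979 to 1.15). The median in replicate 2 was 7.07 in wide gaps (6.80 to 7.62) and 7.08 in narrow gaps (6.81 to 7.37), a ratio of 0.998, and these intervals overlapped almost completely. The MACS significance, a Poisson p-value on a -log10 scale multiplied by 10, was higher in wide gaps, with medians of 165 against 120 in replicate 1 and 159 against 132 in replicate 2.

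Within classes of summed tags, the median fold enrichment of wide-gap loci was lower than that of narrow-gap loci. All 2224 gap loci were divided into 5 classes of equal size by the sum of their tags in both lists. In the lowest class, median fold enrichment was 5.84 in wide gaps and 6.08 in narrow gaps in replicate 1, and 5.47 against 5.87 in replicate 2. The highest class had medians of 12.1 in wide gaps and 14.03 in narrow gaps in replicate 1, and of 10.7 and 12.5 in replicate 2. The ratio of wide over narrow gaps lay below 1 in each of the 5 classes in both lists. It lay between 0.865 and 0.961 in replicate 1 and between 0.797 and 0.931 in replicate 2. Peak length also differed within these classes, with ratios of medians between 1.02 and 1.10 in replicate 1. In replicate 2 they lay between 0.996 in the lowest class and 1.20 in the highest. The highest class ran from 222 to 3243 summed tags, so tags were not equal within it. The part of peak length in the lower fold enrichment was not tested.

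The local background, estimated for each peak from tags, significance and length, had a higher median in wide than in narrow gaps in both lists. Many loci shared nearly the same estimate, so its median moves in steps. The lowest estimates in wide gaps, 0.972 and 0.927 times in replicates 1 and 2, lay below the genome-wide level. In replicate 1 the background had a median of 1.24 times that level in wide gaps (interval 1.18 to 1.24) and 1.15 times in narrow gaps (1.15 to 1.15). In replicate 2 it was 1.39 times (1.39 to 1.47) against 1.16 times (1.16 to 1.24). In the class of loci with most tags it was 1.37 times against 1.24 times in replicate 1 and 1.55 times against 1.39 times in replicate 2. In the 4 lower classes the ratio of wide over narrow gaps lay between 1.00 and 1.01 in replicate 1 and between 1.04 and 1.20 in replicate 2. The ratios of fold enrichment in these 4 classes were 0.889 to 0.961 in replicate 1 and 0.797 to 0.931 in replicate 2. The part of this background in the lower fold enrichment was not tested.

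**Figure D2:**
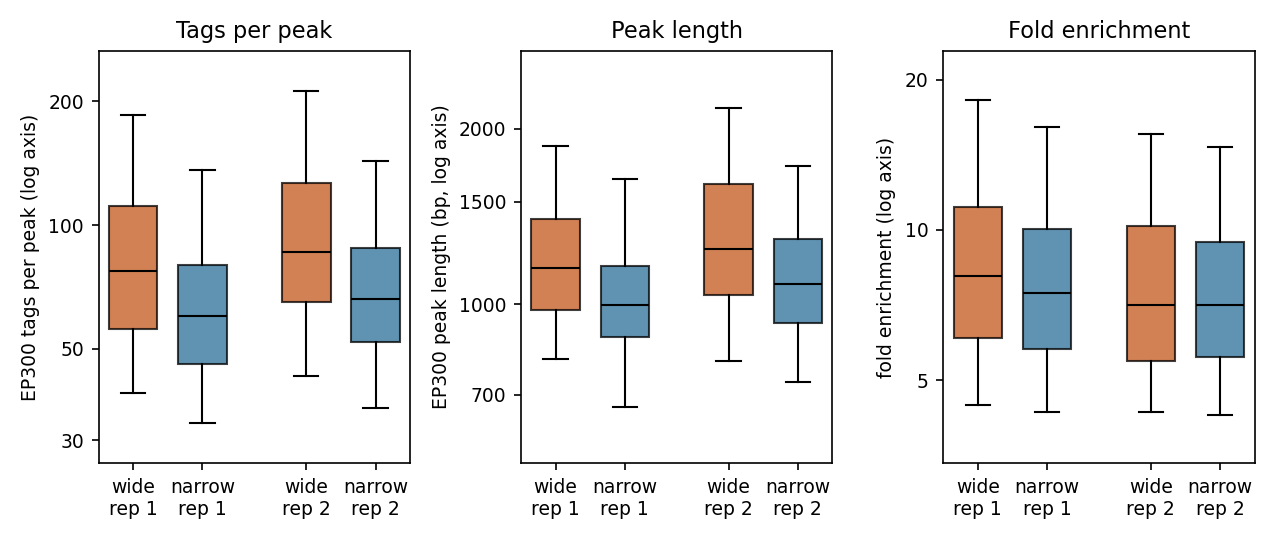
EP300 tags per peak, peak length in bp and fold enrichment at wide (orange) and narrow (blue) gaps in replicates 1 and 2, on log axes. Boxes show quartiles and median, and whiskers reach from the 5th to the 95th percentile. Tags and length are higher in wide gaps in both replicates. The fold enrichment medians are 8.09 and 7.49 in replicate 1 and 7.07 and 7.08 in replicate 2.

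Read the other way, the share of gap loci with a wide gap grew with the number of EP300 tags. In replicate 1 it was 18.4% in the lowest quintile of tags (interval 14.9% to 22.3%), then 23.4%, 26.6% and 30.8%, and 38.4% in the highest (33.9% to 43.1%), around the 27.5% of all gap loci. In replicate 2 the corresponding shares were 19.1%, 21.3%, 28.2%, 29.0% and 40.0%. Peak length gave a similar order, with 17.3% in the shortest and 40.9% in the longest quintile of replicate 1, and 20.7% and 42.7% in those of replicate 2. By fold enrichment the shares stayed between 25.4% and 31.5% in replicate 1 and between 22.1% and 29.4% in replicate 2, with overlapping intervals for the lowest and highest quintiles of both lists. The interval of the third quintile in replicate 2, at 22.1% (18.3% to 26.2%), lay below 27.5%. Across the 2224 loci, which share the same libraries, the Spearman correlation of gap width was 0.25 with replicate 1 tags, 0.26 with replicate 2 tags, 0.09 with replicate 1 fold enrichment and 0.02 with replicate 2 fold enrichment. Among the 612 members alone, which span a smaller range of widths, it was 0.07 with the tags of each list.

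**Figure D3:**
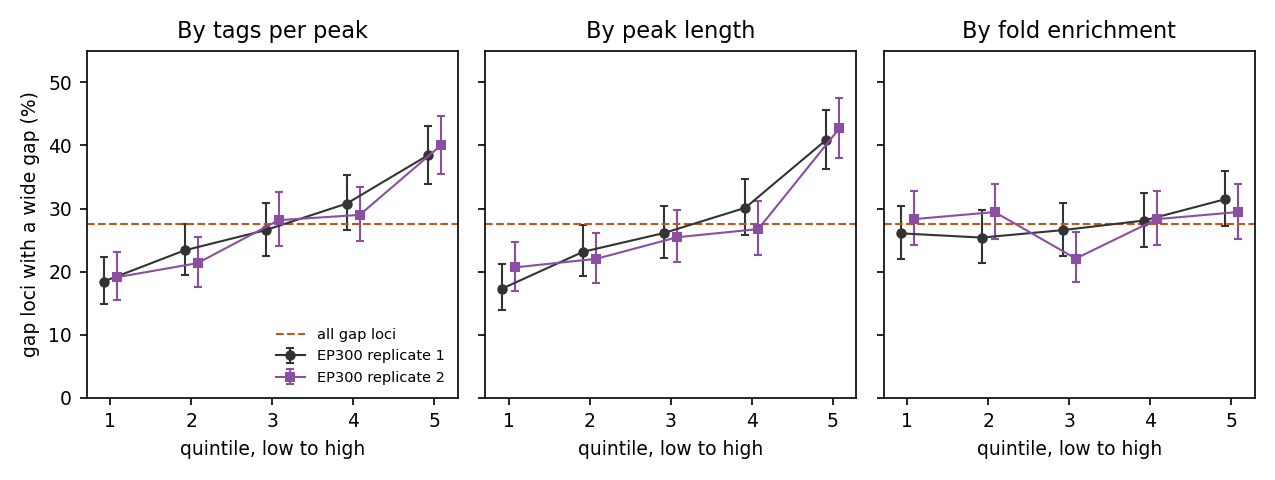
Percentage of gap loci with a wide gap in quintiles of EP300 tags, peak length and fold enrichment, for each replicate. Points are shares, bars are Clopper-Pearson 95% intervals, and the dashed line is the 27.5% of all gap loci. The share climbs with tags and length, and by fold enrichment it lies between 22.1% and 31.5%, with the third quintile of replicate 2 below the line.

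The H3K4me1 regions beside wide gaps were narrower and scored lower than those beside narrow gaps. These values come from the same list as the gap width. The mean width of the 2 flanks had a median of 825 bp at wide gaps (interval 775 bp to 875 bp) and 975 bp at narrow gaps (925 bp to 1000 bp), a ratio of 0.846. The slimmer flank had a median of 550 bp against 700 bp, and the wider flank 1050 bp against 1150 bp. A flank of 200 bp or less was present at 78 wide gaps (12.7%) and 31 narrow gaps (4.20%), beside 7.96% of all gap loci. Both flanks ranked above 80% of the authors' regions at 110 wide gaps (18.0%, interval 15.0% to 21.2%) and 308 narrow gaps (41.7%, 38.1% to 45.4%), beside 29.3% of all gap loci. The difference in width did not hold in the upper 50% of H3K4me1 regions, where gaps were defined anew and the ratio was 1.07 (interval 0.909 to 1.18).

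Flanks were wider at loci in the highest than in the lowest class of summed EP300 tags in both kinds of gap, and were slimmer at wide than at narrow gaps in each of the 5 classes. In the lowest class, the median of the mean flank width was 637.5 bp at wide gaps and 825 bp at narrow gaps. In the highest class it was 987.5 bp against 1225 bp. Averaged over the 5 classes, the ratio of wide over narrow gaps was 0.784, with a lowest value of 0.718 and a highest of 0.873. Wide-gap loci thus combined higher EP300 tag counts with slimmer flanks, although across all gap loci tags and flank width correlated positively, with a Spearman correlation of 0.24 (0.28 among wide and 0.23 among narrow gaps).

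The outer span and the distance between flank maxima contain the gap itself, the value that chose the loci, and are given as a description only. From the outer edge of one flank to the outer edge of the other, the median span was 2750 bp at wide gaps (interval 2650 bp to 2850 bp) and 2300 bp at narrow gaps (2200 bp to 2400 bp), a difference of 450 bp beside a difference of 650 bp in the gap itself. The positions of highest score in the 2 flanks lay a median of 1850 bp apart at wide gaps and 1200 bp at narrow gaps. The mean distance of these maxima from the edge of the gap was slightly shorter at wide gaps, with medians of 349.5 bp (interval 324.5 bp to 374.5 bp) at wide and 399.5 bp (399.5 bp to 424.5 bp) at narrow gaps. The medians of the distance between maxima and of the gap itself thus differed by the same 650 bp. Around the whole element, wide and narrow gaps had a median of 3 regions each within 5 kb of the centre. Another shared EP300 locus lay within 10 kb of 118 members (19.3%) and of 159 loci in narrow gaps (21.5%), beside 20.5% of all gap loci.

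Distances in bp within the gap are bounded by the gap width that chose the loci and are given as a description. The median distance from summit to the middle of the gap was 166.5 bp at wide gaps in each replicate, and 67.5 bp and 63.5 bp at narrow gaps in replicates 1 and 2. Summits of the 2 replicates were similarly close to each other, with a median distance of 68 bp at wide gaps (interval 62 bp to 77 bp) and 65 bp at narrow gaps (57 bp to 70 bp). Both summits were inside the gap at 592 wide gaps (96.7%) and 589 narrow gaps (79.8%), beside 90.6% of all gap loci. At gaps of 550 bp to 800 bp the share was 95.5%. As a share of the gap, with 0.5 as its middle, the distance from centre to nearer edge had a median of 0.373 at wide gaps (interval 0.363 to 0.382) and 0.332 at narrow gaps (0.319 to 0.344). Gaps of 550 bp to 800 bp had a median of 0.376 (0.366 to 0.388), like wide gaps. Taken as whole classes, the narrow gaps thus stood apart from both others on this share, but it varied among wide gaps. The difference of 0.0407 between wide and narrow gaps was 0.000148 when the centre was placed between the MACS summits instead of in the overlap of the peaks. In gaps of 850 bp to 1000 bp, where the limit of 1000 bp does not constrain the centre, the median was 0.373 as well. At the 89 gaps of 850 bp alone it was 0.343 (0.308 to 0.373). In wider gaps, where the limit does constrain the centre, it was 0.354 (0.337 to 0.375) from 1050 bp to 1300 bp and 0.423 (0.385 to 0.438) from 1350 bp. The intervals at 850 bp and at 1050 bp to 1300 bp overlap that of narrow gaps. In bp, the nearer edge was a median of 380 bp and the farther edge 671 bp from the centre of a wide gap, against 127 bp and 265 bp in narrow gaps.

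The centre of the locus lay closer to the stronger of the 2 flanks more often in wide than in narrow gaps. The nearer flank had the higher H3K4me1 score at 370 of 612 wide gaps (60.5%, interval 56.5% to 64.4%) and at 388 of 738 narrow gaps (52.6%, 48.9% to 56.2%), beside 55.9% of all gap loci. At gaps of 550 bp to 800 bp the share was 55.5% (52.1% to 58.8%), with an interval that overlaps those of both other classes. The nearer flank was set by the centre of the peak overlap. This share was not recomputed with centres between the MACS summits. The median score was 3.62 for the nearer and 3.53 for the farther flank of wide gaps, and 3.79 and 3.77 for those of narrow gaps. In ranks, the nearer flank of wide gaps had a median percentile of 76.0 and the farther flank 68.2, against 86.2 and 85.1 in narrow gaps. For width the imbalance was smaller, the nearer flank being the wider at 55.4% of wide gaps (51.4% to 59.4%) and 52.0% of narrow gaps (48.4% to 55.7%), beside 53.3% of all gap loci. The 3 width classes of wide gaps gave like shares with the nearer flank scoring higher, at 62.2%, 58.6% and 59.2% with increasing width.

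**Figure D4:**
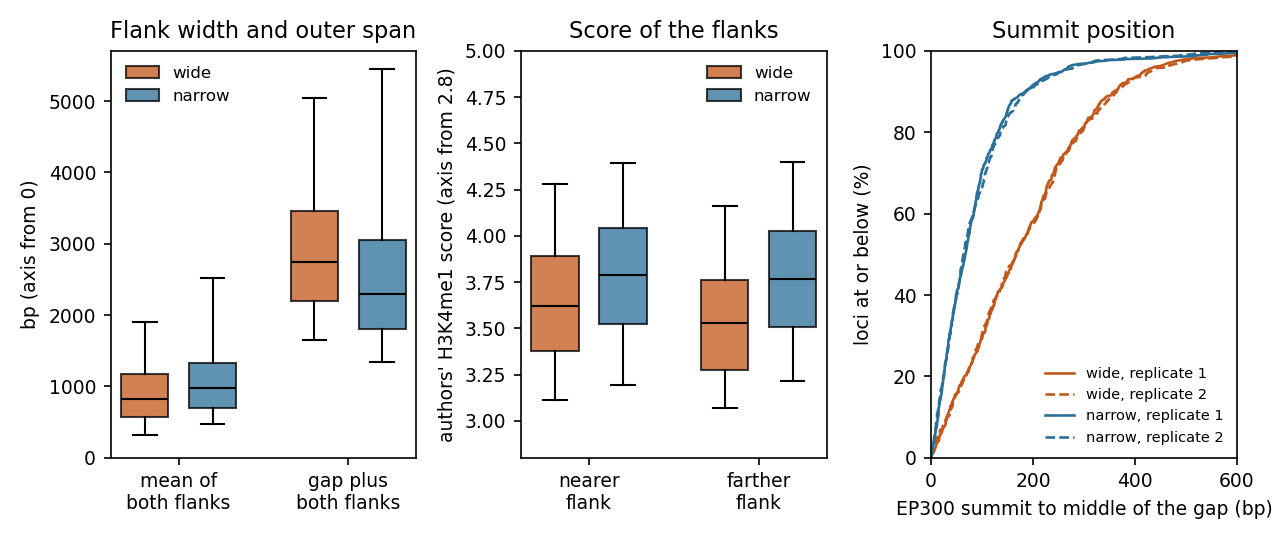
Left, mean flank width and outer span in bp; middle, the authors' H3K4me1 score of the nearer and farther flank, on an axis that starts at 2.8; right, cumulative percentage of loci by distance from EP300 summit to the middle of the gap. Boxes show quartiles and median with whiskers from the 5th to the 95th percentile. Flanks of wide gaps (orange) are slimmer and score lower than those of narrow gaps (blue). The outer span and the summit distance, with a median of 166.5 bp at wide gaps, depend on the gap width that chose the loci.

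Whether a locus reaches the flanks depends on the gap width that chose the loci, so these counts are a description. The merged locus overlapped both flanks at 321 wide gaps (52.5%, interval 48.4% to 56.5%), a single flank at 265 (43.3%) and neither at 26 (4.25%). In narrow gaps 735 of 738 loci overlapped both flanks, beside 84.4% of all gap loci. The loci inside wide gaps without touching a flank made up 0.669% of gaps up to 1000 bp, 3.80% of those from 1050 bp to 1300 bp and 19.7% of those of 1350 bp or more. The widest class had the highest median tags of the 3, with medians of 84.5 in replicate 1 (interval 77 to 104) and 101.5 in replicate 2 (89 to 116), against 75 and 85 in the middle class and 76 and 84 in the first. Their intervals overlapped.

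Wide gaps were found on every chromosome that held gap loci. The share of gap loci with a wide gap was highest on chromosome 3, at 54 of 148 (36.5%, interval 28.7% to 44.8%), and chromosome 2, at 60 of 172 (34.9%, 27.8% to 42.5%), and lowest on chromosome 15, at 22 of 129 (17.1%, 11.0% to 24.7%). The interval of chromosome 15 lies below the 27.5% of all gap loci, and those of chromosomes 3 and 2 lie just above it. With 20 chromosomes compared and these named after their values were seen, this is a description. Chromosome X had 4 wide gaps among 12 gap loci.

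The 12 members with the best mean rank by EP300 significance had 171 to 351 tags in replicate 1 and 261 to 438 in replicate 2. First was the locus at chromosome 15, 93359836 to 93361846, with 337 and 412 tags in replicates 1 and 2 and 35.6-fold and 31.9-fold enrichment. Its gap of 1100 bp had the centre 605 bp from a flank of 2050 bp, ranked 942 of 59923, and 496 bp from one of 1250 bp, ranked 11479. It lay 862382 bp from the next shared locus. Second was chromosome 2, 44077142 to 44079175, with 301 and 340 tags in a gap of 1300 bp, whose flanks of 800 bp and 550 bp were ranked 3948 and 23556. Another shared locus was only 3819 bp away.

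Some of the 12 had at least 1 low-ranked flank. The third locus, at chromosome 5, 58534508 to 58536476, had 335 and 314 tags and 31.8-fold and 23.8-fold enrichment, but its flanks were 350 bp and 650 bp wide and ranked 44315 and 26417. The twelfth, at chromosome 15, 55100785 to 55102467, had 171 and 261 tags beside a flank of 100 bp ranked 56587. Its centre was 960 bp from that flank and 341 bp from the other, which was 1350 bp wide and ranked 5431. The eleventh, at chromosome 3, 152230576 to 152233049, had 282 and 292 tags and a left flank of 200 bp ranked 46311, against a right flank of 800 bp ranked 4498. At this locus EP300 lay 283 bp from the weaker flank and 868 bp from the stronger one.

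The opposite arrangement, with broad flanks, was seen at chromosome 6, 97930570 to 97933744. This locus had 351 and 438 tags, the most of any member in replicate 2, in a gap of 1000 bp whose centre was 477 bp and 524 bp from the edges. Its flanks of 3200 bp and 1100 bp ranked 2926 and 1562, and the outer span was 5300 bp. Its fold enrichment was only 14.7 in replicate 1 and 15.4 in replicate 2, lower than at most of the 12. The other locus on chromosome 6, at 12469988 to 12472055, had similar counts of 323 and 409 tags, with 17.5-fold and 28.9-fold enrichment and flanks of 700 bp and 450 bp.

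The remaining loci of the 12 had gaps of 900 bp to 1450 bp. Chromosome 3, 79806574 to 79808137, had 231 and 283 tags and a gap of 900 bp in which EP300 lay 277 bp from the right flank. The 2 loci on chromosome 7 were at 94655110 to 94658068, with 303 and 373 tags, and at 78276218 to 78278132, with 224 and 293 tags. In the second of these the flanks were of equal width, 600 bp each, and the centre was 575 bp and 626 bp from them. On chromosome 4, the locus at 80442420 to 80444373 had 325 and 341 tags between flanks of 1700 bp and 900 bp, and that at 99158034 to 99159776 had 247 and 266 tags in a gap of 1450 bp, of which it reached the left edge alone. Of the 12 loci, 10 overlapped both flanks.

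For comparison, the 3 best-ranked loci in narrow gaps had 169 to 297 tags in replicate 1 and 154 to 297 in replicate 2. The first, at chromosome 4, 144593593 to 144595056, had 207 and 223 tags in a gap of 200 bp, with 23.4-fold and 33.0-fold enrichment and flanks ranked 92 and 3134. The second, at chromosome 6, 146025456 to 146027620, had 297 tags in each replicate, and the third, at chromosome 4, 57747803 to 57749009, had 169 and 154 tags with 30.4-fold and 24.3-fold enrichment. Among the 100 best-ranked gap loci, 34 were in wide gaps (34.0%, interval 24.8% to 44.2%, around the 27.5% of all gap loci), 49 in gaps of intermediate width and 17 in narrow gaps. Of the best 500, 180 were in wide gaps (interval of the share 31.8% to 40.4%), 216 in intermediate gaps (43.2%, 38.8% to 47.7%, beside 39.3% of all gap loci) and 104 in narrow gaps (20.8%, 17.3% to 24.6%, beside 33.2%).

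**Figure D5:**
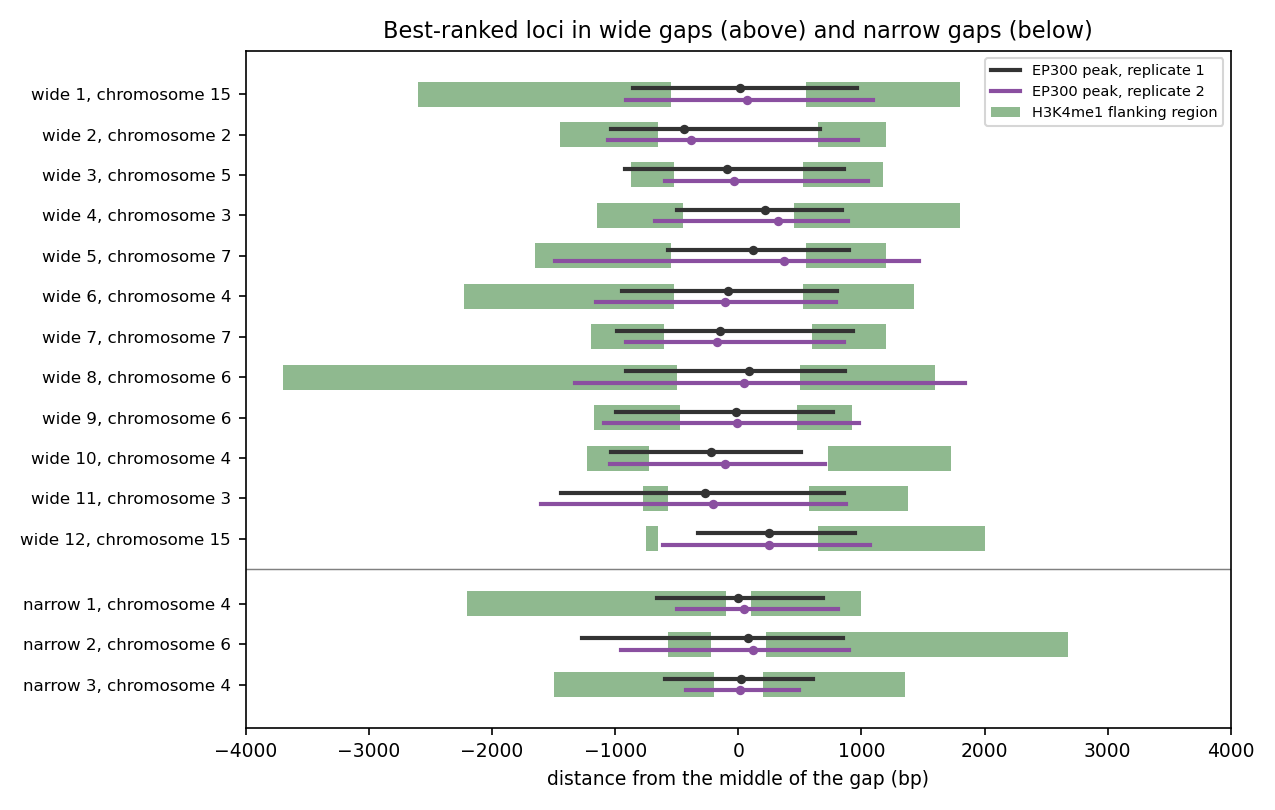
H3K4me1 flanking regions (green) and EP300 peaks of replicates 1 and 2 (black and purple lines, dots at the summits) at the 12 best-ranked wide-gap loci, above the 3 best-ranked narrow-gap loci, by distance from the middle of the gap in bp. Of the 12 wide gaps, 10 are bridged on both sides, and flanks range from 100 bp to 3200 bp in width.

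The 8 gaps taken as widest measured 1650 bp to 1850 bp. Gaps of 1650 bp were tied at 6 loci, of which the 2 with most tags were taken, and the other 4 had 62 to 122 tags in replicate 1 and 55 to 126 in replicate 2. The widest of all, 1850 bp at chromosome 4, 70123117 to 70125520, had 48 tags in replicate 1 and 135 in replicate 2. Its 2.96-fold enrichment in replicate 1 was the lowest of any member, and it was 5.29-fold in replicate 2. Its replicate summits were 775 bp apart, whereas the median of all members was 68 bp. By contrast, the locus at chromosome 10, 24990872 to 24992918, had 203 and 193 tags and 17.04-fold and 11.6-fold enrichment, with summits 9 bp apart in a gap of 1650 bp. At chromosome 3, 132527587 to 132528999, 185 and 133 tags were found in a gap of 1650 bp between flanks of 500 bp and 3750 bp.

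The other 5 of these loci had 67 to 134 tags in replicate 1 and 89 to 160 in replicate 2. On chromosome 11, 106449734 to 106451626 had 78 and 89 tags in a gap of 1750 bp, and 85205350 to 85206819 had 67 and 96 tags in a gap of 1700 bp. On chromosome 5, 106014165 to 106016548 had 134 and 160 tags with 5.97-fold and 4.45-fold enrichment, and was long enough, at 2090 bp and 2384 bp in the 2 lists, to reach both flanks. The locus at 66914326 to 66916081 on the same chromosome had 84 and 92 tags, and a locus on chromosome 18 with a gap of 1750 bp had 132 and 113. Of the 8 loci, 2 overlapped both flanks.

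Members with the broadest flanks had EP300 tags in the middle of the range. The widest sum of flanks was at chromosome 1, 62759089 to 62760276, where regions of 4700 bp and 3050 bp surrounded a gap of 900 bp with 68 and 86 tags. At chromosome 14, 32216203 to 32217874, a region of 6100 bp faced one of 900 bp across a gap of 1150 bp, with 93 and 89 tags. At chromosome 2, the locus at 75520338 to 75521991 had 87 and 73 tags between 2500 bp and 4200 bp, and that at 30296731 to 30297970 had 76 and 97 tags beside a region of 5400 bp ranked 498. The last, at chromosome 8, 114249660 to 114250733, had 63 and 68 tags. The tag counts of these 5 loci, 63 to 93 in replicate 1 and 68 to 97 in replicate 2, lie between the quartiles of all members.

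Among the members in the upper quartile by tags, the most symmetric had the nearer edge at 0.490 to 0.496 of the gap width. The locus at chromosome 13, 118382819 to 118384558, had its centre 794 bp and 807 bp from the edges of a gap of 1600 bp, with 129 and 122 tags. That at chromosome 8, 93240023 to 93241224, had 131 tags in each replicate, 430 bp and 421 bp from the edges. That at chromosome 12, 45646315 to 45647973, had flanks ranked 599 and 708, with 147 and 133 tags. The other 2 were at chromosome 5, 105828902 to 105830463, with 101 and 142 tags, and at chromosome 9, 70771995 to 70773735, with 165 and 169.

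The least symmetric by the same limit had their centre 30 bp to 193 bp from the nearer edge. At chromosome 12, 80979747 to 80982018, the centre was 871 bp from the left and 30 bp from the right flank, with 142 and 192 tags. Its summits, 25 bp apart at 80980346 and 80980321, were nearer the left edge, so that its place in the gap depends on how the centre is set. At chromosome 10, 120943245 to 120944648, it was 140 bp and 811 bp from the flanks, with 115 and 124 tags and 19.5-fold and 14.5-fold enrichment. At chromosome 6, 29266953 to 29270257, with 158 and 252 tags, the replicate summits were 774 bp apart. They lay at 29268250 and 29269024 in a gap from 29268100 to 29269249, so they were near opposite edges. In 4 of these 5 loci, including one on chromosome 18 and that at chromosome 15, 11418812 to 11421569 (111 and 154 tags), the nearer flank was the one with the higher score. The replicate 2 summit of the chromosome 15 locus, at 11420956, lay beyond the end of its gap at 11420899.

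The balance of the replicates was alike in wide and narrow gaps. The log2 ratio of tags, replicate 1 over replicate 2, had a median of -0.18 in wide gaps and -0.16 in narrow gaps, and ran between -1.53 and 1.15 in wide gaps and between -1.91 and 5.32 in narrow gaps, where 1 locus had 3164 tags in replicate 1. The Spearman correlation of tags between the lists was 0.74 over the 612 wide-gap loci and 0.62 over the 738 narrow-gap loci, whose quartiles of tags lie closer together. Among wide gaps, the largest excess in replicate 1 was at chromosome 14, 119273682 to 119275070, with 80 and 36 tags, followed by chromosome 6, 100925260 to 100927810, with 144 and 66, and chromosome 7, 107703566 to 107704671, with 65 and 32. The largest excess in replicate 2 among wide gaps was at chromosome 13, 45549192 to 45551375, with 58 tags in replicate 1 and 167 in replicate 2. The next were the widest gap of all on chromosome 4 and chromosome 5, 101050379 to 101052468, with 40 and 102 tags. In these 3 loci the replicate 2 peak was at least 1944 bp long, against at most 1147 bp in replicate 1.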

How the data were processed

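EP300 and H3K4me1 ChIP-seq lists of melan-a cells were used as deposited, on mm9 per the submitters' processing notes. Per the file headers, the authors ran MACS 1.4.1 on each EP300 replicate by itself, with a control library and a p-value limit of 1e-05. The deposited peak values used here are tag counts, fold enrichment (a ratio of summit height to local background) and significance, a score equal to the -log10 Poisson p-value multiplied by 10. A deposited percent value, the false discovery rate, was left aside. The deposited H3K4me1 list gives widths, a score, a maximum log2 fold change, a -log10 p-value that stops at 100 and a false discovery rate as a fraction. For this list, caller and depth were not given in the sources used here. Tags were not scaled between replicates.

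Shared loci, gaps and flanks were computed with Python 3.11.15, numpy 2.4.6, pandas 2.3.3 and scipy 1.17.1. The code was tested on simulated data. The background was solved from the Poisson tail over a window of the peak length, at least 400 bp, for peaks with significance under 1000. Quintiles broke ties by position. No resampling test was run, because loci of 1 sample are not replicates. Members and lists were chosen with earlier results of these data known. Regions were named by fixed rules: best mean rank, widest gaps, broadest flanks, most and least symmetric, and most unequal replicates. Planned searches for genes and motifs were not run, as the reference used here is of another build. The alternatives tried changed limits, centre, lists, overlap, merging, chromosome 6 and replicates.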

Additional observations from a re-analysis of the deposited data

How the results depend on the processing

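For 11 results, values were recomputed under some of 17 settings. Gaps up to 1000 bp and loci with 1 peak in each list were added after the data were seen. The 11 were the share of wide gaps, the mean flank width, the symmetry and, in each list, tags, tags per kb, fold enrichment and peak length. Flank scores and ranks, nearer-flank shares, background, fold enrichment within classes of tags and chromosome shares were not recomputed. Of 158 alternative values, 146 stayed inside the interval of the reported one. Counting each gap once could change no value, because no gap held more than 1 shared locus. Its values are among the 146. The intervals of ratios and of the symmetry difference join the outer ends of 2 separate median intervals, which makes them wide. The 27.5% share of wide gaps was 38.9% with a limit of 750 bp, 17.0% with 1000 bp, 34.0% with flanks within 2000 bp and 25.1% with the upper 50% of H3K4me1 regions, and 25.5% to 26.5% over all peaks of a single list. The tag ratios of replicates 1 and 2, 1.29 and 1.30 as reported, averaged 1.05 and 1.09 within classes of peak length. The peak length ratios of 1.16 and 1.15 were 1.24 and 1.23 with the upper 50% of H3K4me1 regions, where the flank width ratio turned to 1.07 (interval 0.909 to 1.18). The cause was not tested. The symmetry difference of 0.0407 was 0.0165 with flanks within 2000 bp and 0.000148 with centres between MACS summits, where the cause was not tested. With 1 sample per antibody there were no groups of samples to compare, so no paired analysis was run. Intervals cover counting error over loci, and the depth of H3K4me1 is unknown.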

Other observations

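EP300 peaks found in a single list offer the same measures at loci outside the shared set. Of 4829 such peaks in replicate 1, 910 had their centre in a gap, and 203 of these gaps (22.3%, interval 19.6% to 25.2%) were wide and 367 narrow. Of 6748 such peaks in replicate 2, 1092 were in a gap, with 208 wide (19.05%, 16.8% to 21.5%) and 522 narrow. Both shares of wide gaps lie below the 27.5% of all shared loci with their centre in a gap. The 2 sets differ in how the centre was set, here the midpoint of the single peak, and in tags. The single-list peaks in gaps had medians of 44 and 48 tags in replicates 1 and 2. Shared loci in the lowest quintile of tags had shares of 18.4% in replicate 1 (23 to 47 tags) and 19.1% in replicate 2 (24 to 52 tags). The flanks were slimmer at wide gaps, with a median of the mean flank width of 625 bp (interval 550 bp to 750 bp) against 750 bp (700 bp to 775 bp) in replicate 1, and 600 bp (550 bp to 650 bp) against 750 bp (700 bp to 775 bp) in replicate 2. Gaps and flanks come from the same H3K4me1 list as at the shared loci, so these widths are not separate evidence. Tags were 46 (44 to 49) in wide gaps against 43 (41 to 44) in narrow gaps in replicate 1, and 50 (46 to 54) against 46 (45 to 48) in replicate 2, so the differences were small and the intervals touched or overlapped. Fold enrichment was not higher in wide gaps in either list, with medians of 5.77 against 5.84 in replicate 1 and 5.17 against 5.59 in replicate 2, the intervals of replicate 2 being 5 to 5.34 and 5.38 to 5.82.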
